A study of Mus musculus with 4 samples.

Results

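Genes with a much lower level in both G3bp1 knockout (KO) libraries of cultured mouse macrophages were selected from a table of 34745 genes, and 6 genes were found: Vmn2r96, Wdfy1, Cdk5rap1, Ccr3, Rab4a and Retnla. The level was the CPM, the share of a library's counts that fell on a gene, multiplied by 1000000. A gene was selected when its lowest wild-type (WT) CPM was 1 or more and was at least 3 times its highest KO CPM. Genes that started within 5 Mb of G3bp1, on chromosome 11 from 50469685 to 60469685, were left out, as were names beginning with Ifi, Oas, Mx, Gbp or Hb and the genes Pkp2, S100a9, Retnlg and Cma1. Of 10923 genes with at least 1 CPM in both WT libraries, 15 passed the limits, which was 0.137%. Position removed 5 of these and name removed 4. Since the KO and WT levels chose the 6 genes, these levels are given as a description, and no test on the same libraries is used to support them.

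Total RNA was sequenced from macrophages in 4 libraries, 2 of the genotype labelled WT and 2 of that labelled G3bp1mac-/-, each numbered 1 and 2. Per the study's methods, both genotypes carried a floxed G3bp1 gene, and the KO mice carried in addition a Cre recombinase driven by Lyz2, a gene of monocytes, macrophages and granulocytes. G3BP1 is the RNA-binding scaffold protein of stress granules, cytoplasmic condensates of untranslated mRNA. The labels give no age and do not say whether the samples came from separate animals, so the spread between the libraries of a genotype may be technical.

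The total count was 17004167 and 16926884 for the WT libraries, and 16724241 and 19747909 for the KO libraries. In a library of this depth, 3 counts, the limit that a count of 0 allows, correspond to 0.152 to 0.179 CPM, for counting error only. The macrophage genes Lyz2, Cd68, Csf1r and Adgre1 were present in every library, Lyz2 at 17581 to 20862 CPM and Csf1r at 370 to 594 CPM. G3bp1 had 99.4 and 170 CPM in WT and 78.2 and 116 CPM in KO, so the genotypes overlapped, and the log2 fold change of KO over WT was −0.61 (SE 0.40). With 1 library left out, this value for G3bp1 ranged from −1.03, without KO replicate 2, to −0.19, without WT replicate 2. Counts over a whole gene do not show whether particular exons were lost.

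Wdfy1 encodes a FYVE-domain protein of early endosomes that binds phosphatidylinositol 3-phosphate and takes part in signalling from Toll-like receptors. Rab4a encodes a small GTPase that directs the rapid recycling of cargo from early endosomes to the cell surface. Cdk5rap1 encodes an enzyme that adds a methylthio group to mitochondrial tRNAs and was named for its binding to the activator of the kinase CDK5. Retnla encodes RELMα, a secreted protein that macrophages make in response to IL-4 and IL-13 through the transcription factor STAT6, and it serves as a marker of alternative activation. Ccr3 encodes the receptor for eotaxins, the chemokines that attract eosinophils, and is known from eosinophils, basophils and mast cells. Vmn2r96 belongs to the vomeronasal type 2 receptors, G protein-coupled receptors of sensory neurons in the vomeronasal organ.

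Promoter windows of 3 of the 6 genes were taken from RefSeq on GRCm38.p6, each from 250 bases before to 50 bases after the annotated start, to show which regulatory letters the genes had in common. The window of Ccr3 was chr9:124021721-124022020 on the plus strand, that of Cdk5rap1 chr2:154372670-154372969 on the minus strand and that of Retnla chr16:48842359-48842658 on the plus strand. The RefSeq window of Vmn2r96 was not used, since GENCODE M21 starts that gene 8576 bases further upstream. Each is printed 5′ to 3′ along its gene, and capitals mark the motif matches described in the next paragraph.
Ccr3: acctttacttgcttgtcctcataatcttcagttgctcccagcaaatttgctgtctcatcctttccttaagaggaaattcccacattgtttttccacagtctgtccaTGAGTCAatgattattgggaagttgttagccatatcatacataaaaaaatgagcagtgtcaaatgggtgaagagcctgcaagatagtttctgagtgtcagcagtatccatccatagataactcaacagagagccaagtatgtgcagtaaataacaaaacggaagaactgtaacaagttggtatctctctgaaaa
Cdk5rap1: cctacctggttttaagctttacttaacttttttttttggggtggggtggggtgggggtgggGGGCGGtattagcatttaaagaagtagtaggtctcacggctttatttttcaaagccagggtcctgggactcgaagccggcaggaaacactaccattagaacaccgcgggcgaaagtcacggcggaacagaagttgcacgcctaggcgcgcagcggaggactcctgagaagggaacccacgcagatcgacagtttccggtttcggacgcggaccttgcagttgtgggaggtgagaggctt
Retnla: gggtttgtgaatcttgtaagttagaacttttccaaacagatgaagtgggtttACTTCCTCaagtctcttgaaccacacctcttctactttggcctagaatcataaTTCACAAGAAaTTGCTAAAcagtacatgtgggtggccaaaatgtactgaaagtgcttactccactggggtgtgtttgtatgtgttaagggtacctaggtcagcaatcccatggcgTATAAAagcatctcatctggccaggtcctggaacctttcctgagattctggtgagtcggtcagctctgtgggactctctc

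No motif searched was found in more than 1 of these 3 windows, while the unused window of Vmn2r96 held the letters of the TATA box, on its reverse strand, as that of Retnla did on the forward strand. Matches were sought on both strands, and shares are of all 32851 RefSeq windows of the same length. The window of Retnla held the STAT6 element TTCNNNNGAA, present in 6.95% of all windows, at −145 to −136 relative to the start, and the C/EBP element TTGCNNAA, present in 10.8%, at −134 to −127. It also held the PU.1 element GAGGAAGT, present in 3.20%, on the reverse strand at −198 to −191, and the TATA box TATAAA, present in 13.6%, at −30 to −25. The window of Ccr3 held the AP-1 element TGANTCA, present in 7.81%, at −144 to −138. That of Cdk5rap1 held the GC box GGGCGG, present in 35.7%, at −189 to −184. The GAS element TTCNNNGAA, present in 8.30% of all windows, and the interferon-stimulated response element GAAANNGAAA, present in 3.44%, were in none of the 3. The GC content was 39.0% for Ccr3, 54.7% for Cdk5rap1 and 44.7% for Retnla, against a median of 52.7% over all windows. For Cdk5rap1 and Retnla, the RefSeq start lay inside the span of the gene in the deposited table. A match of letters is a description of the sequence and does not show a bound site.

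Of the endosomal genes, Wdfy1 had the highest counts of all 6 and the smallest ratio between the libraries of a genotype, 1.01 in WT and 1.03 in KO. Wdfy1 (ENSMUSG00000073643) had 68.9 and 69.4 CPM in WT and 16.5 and 16.0 CPM in KO, from 1171 and 1175 counts against 276 and 315. The libraries of each genotype lay close together, and both KO libraries were far below both WT libraries. The mean was 69.1 ± 0.389 CPM (SD, n = 2) in WT and 16.2 ± 0.390 in KO (SD, n = 2), so that KO held 23.5% of the WT level. The log2 fold change fitted with edgeR on TMM-scaled totals was −2.24 (SE 0.23). Rab4a (ENSMUSG00000019478) had 7.06 and 3.31 CPM in WT and 1.02 and 0.861 CPM in KO. WT replicate 1 was 2.13 times as high as WT replicate 2, while the KO libraries, at 17 counts each, were nearly level. The WT mean was 5.18 ± 2.65 CPM and the KO mean was 0.939 ± 0.110 CPM (SD over 2 libraries), which left 18.1% of the WT level, with a log2 fold change of −2.61 (SE 0.50).

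The mitochondrial tRNA enzyme gene Cdk5rap1 (ENSMUSG00000027487) had 29.4 and 13.4 CPM in WT and 3.47 and 3.29 CPM in KO. As for Rab4a, WT replicate 1 was the highest library, 2.19 times WT replicate 2, and the KO libraries differed by a factor of 1.05. The counts were 500 and 227 in WT and 58 and 65 in KO. The WT mean was 21.4 ± 11.3 CPM and the KO mean 3.38 ± 0.125 CPM (SD over 2 libraries), and KO held 15.8% of WT, the lowest share among the 5 genes with counts in KO. The log2 fold change was −2.81 (SE 0.45). This lowest place rested on WT replicate 1. Without that library, the log2 fold change was −2.15 for Cdk5rap1, against −2.47 for Ccr3 and −2.26 for Wdfy1.

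Retnla (ENSMUSG00000061100) had 17.2 and 9.51 CPM in WT and 2.51 and 3.04 CPM in KO. WT replicate 1 was again the highest library, and the lower WT library was 3.13 times the higher KO library, just inside the limit of 3. The mean of the WT libraries was 13.3 ± 5.42 CPM and that of the KO libraries 2.78 ± 0.373 CPM (SD over 2 libraries), or 20.8% of WT, with a log2 fold change of −2.40 (SE 0.41).

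The receptor genes had the fewest counts. Ccr3 (ENSMUSG00000035448) had 1.71 and 2.07 CPM in WT and 0.359 and 0.456 CPM in KO, from 29 and 35 counts against 6 and 9. Each KO library held few counts, and both were above the limit that a count of 0 allows. The means were 1.89 ± 0.256 CPM for WT and 0.407 ± 0.0686 CPM for KO (SD over 2 libraries), with a log2 fold change of −2.33 (SE 0.47). Vmn2r96 (ENSMUSG00000091679) had 1.94 and 2.54 CPM in WT, from 33 and 43 counts, and no count in either KO library. Its level in WT was at least 10.8-fold higher than in KO, computed on the lower WT library against 3 counts in a KO library. In the GENCODE M21 transcripts of Vmn2r96, 18.8% of the 50-base stretches also occurred in transcripts of other genes, among them Vmn2r-ps117 and Vmn2r97. Its counts are uncertain, since reads from such copies could be assigned differently. How much of the shorter gene model that was counted is shared in this way was not measured. In GENCODE M21 transcripts the share was 1.66% for Wdfy1, 1.05% for Cdk5rap1 and 0% for Ccr3, Rab4a and Retnla.

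**Figure D1:**
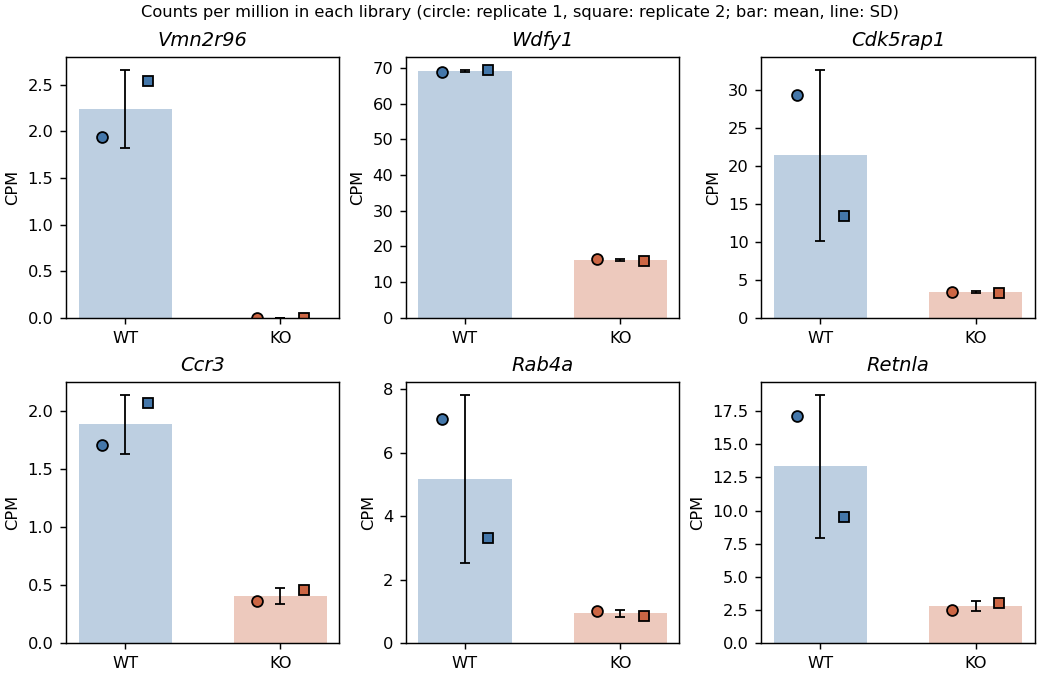
Level of each of the 6 selected genes in CPM (linear axes from 0, a separate scale for each gene) in the WT and KO libraries. Points are libraries, bars are means and lines are SDs over 2 libraries. The WT libraries lie close together for Wdfy1, at 68.9 and 69.4 CPM, and far apart for Cdk5rap1, at 29.4 and 13.4 CPM, and Vmn2r96 is at 0 in both KO libraries.

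Among themselves, the genes fell apart by their spread in WT and not by their spread in KO. The rule favours this pattern, since 1 raised KO library can remove a gene and 1 raised WT library cannot. Cdk5rap1, Rab4a and Retnla were 2.19, 2.13 and 1.81 times as high in WT replicate 1 as in WT replicate 2. Wdfy1 was level between the WT libraries, and Ccr3 and Vmn2r96 were 1.21 and 1.31 times as high in WT replicate 2. In KO, the ratio between the libraries was at most 1.27, in Ccr3. The fold of WT over KO therefore depended on the library for 3 of the genes. Between the libraries numbered 1 it was 8.48 for Cdk5rap1, 6.94 for Rab4a and 6.84 for Retnla. Between those numbered 2 it was 4.07, 3.84 and 3.13. For Wdfy1 it was 4.17 and 4.35, and for Ccr3 4.75 and 4.54.

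Without WT replicate 1, the log2 fold change was −2.15 for Cdk5rap1, −1.98 for Rab4a and −1.93 for Retnla. Without WT replicate 2, it was −3.30, −3.08 and −2.79 in the same order. For Wdfy1, leaving out any 1 of the 4 libraries gave −2.31 to −2.19. In each of these fits the genotype with 1 library left is assumed to vary like the other.

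**Figure D2:**
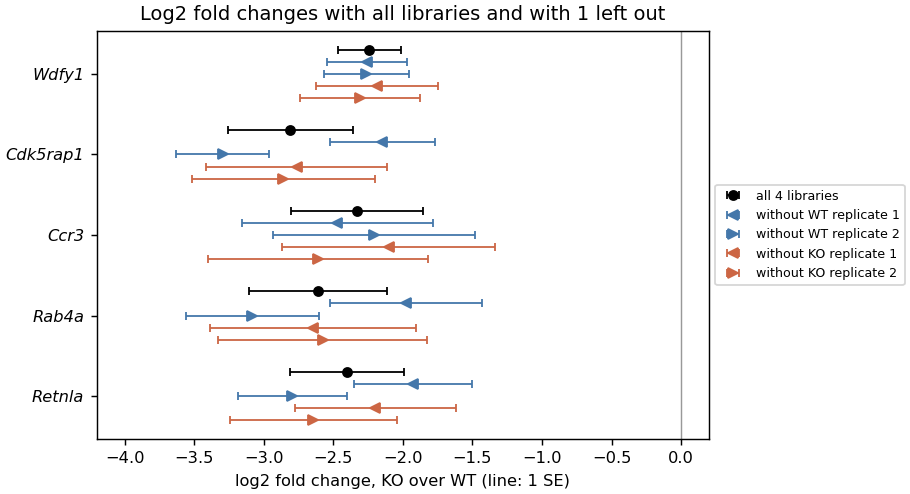
Log2 fold change of KO over WT (x axis, with lines of 1 SE) of the 5 selected genes with counts in both genotypes, fitted with all 4 libraries and with each library left out in turn. The values for Cdk5rap1 spread from −3.30 to −2.15, depending on the WT library left out, and those for Wdfy1 from −2.31 to −2.19.

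Levels of different genes were compared as FPKM, which divides by gene length. In WT, Retnla was the highest of the 6, at 28.7 and 15.9 FPKM, followed by Wdfy1 at 8.45 and 8.51 FPKM. Cdk5rap1 had 6.46 and 2.95 FPKM and Rab4a 3.55 and 1.66 FPKM, and these ranges overlapped. Vmn2r96 at 0.632 and 0.827 FPKM and Ccr3 at 0.521 and 0.632 FPKM were the lowest and were not separated. In KO, Retnla was still first, at 4.20 and 5.08 FPKM, and Wdfy1 second, at 2.02 and 1.96 FPKM. Cdk5rap1 had 0.762 and 0.723 FPKM, Rab4a 0.511 and 0.433 FPKM and Ccr3 0.110 and 0.139 FPKM, and none of these ranges overlapped. By FPKM, Retnla ranked 1480 and 2403 among the genes of the WT libraries and 5928 and 5109 among those of the KO libraries.

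Against all genes, the 6 stood at the low end by construction. Their median log2 fold change was −2.51, with Vmn2r96 at its fitted value or at its bound, that of the 12418 genes tested was 0.04, and the 5th percentile of all was −0.71. Ranked from the lowest, Cdk5rap1 was 11, Rab4a 16, Retnla 23, Ccr3 24 and Wdfy1 31 of 12418, and Vmn2r96 was not ranked because its fold has only a bound. With edgeR's quasi-likelihood test, 0 of 12418 genes were called lower in KO at an adjusted p under 0.05 and a fold over 2, which was 0%. At an unadjusted p under 0.05, 247 genes were lower, or 1.99%, and these included the 6. The edgeR exact test called 30 genes, or 0.242%, including the 6, and the DESeq2 Wald test called 45, or 0.362%, including 5 of them. With limma on log2(FPKM + 1), 0 of 13407 genes were called, again 0%. As the genes were selected on the same libraries, nothing is read from these counts about the 6. The same limits with the genotypes exchanged and no exclusions held for 182 genes.

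The number of genes selected depended on the scaling of the libraries. The TMM factors lowered every log2 fold change by 0.15 relative to library totals, and with TMM-scaled totals or DESeq2 size factors 16 genes passed, the 6 among them. Just outside the limit on library totals were Igkv14-126, with 2.41 and 3.78 CPM in WT and 0.419 and 0.810 CPM in KO, Ighv11-2, with 1.35 and 1.48 CPM against 0.419 and 0.456 CPM, and Cd1d2, with 1.47 and 1.65 CPM against 0.478 and 0.506 CPM. Their ratios of lowest WT to highest KO were 2.98, 2.97 and 2.90. Just inside were Retnla at 3.13, Rab4a at 3.25 and Ccr3 at 3.74. All 3 genes just outside entered with TMM-scaled totals.

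**Figure D3:**
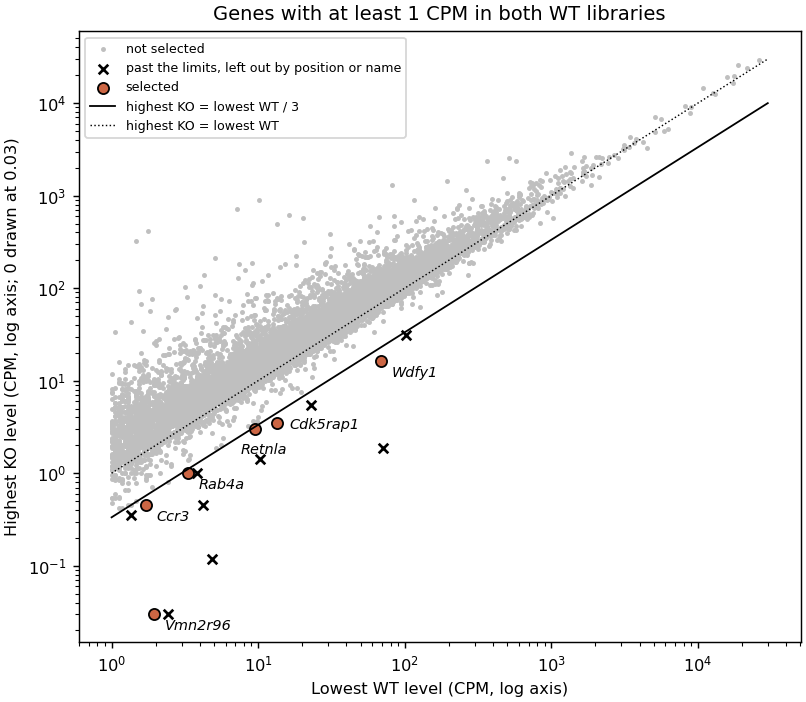
Lowest WT level against highest KO level (CPM, both axes logarithmic, 0 drawn at 0.03) of the 10923 genes with at least 1 CPM in both WT libraries. Grey points were not selected, crosses are the 9 genes left out by position or name, and orange points are the 6 selected genes, which lie below the solid line where the highest KO level is the lowest WT level divided by 3. Wdfy1 has the highest level of the 6, and Retnla lies nearest to the line.

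The 6 genes were spread over the genome. Each lay on a chromosome of its own, no 2 started within 1 Mb of each other, and none started within 5 Mb of Lyz2, whose promoter drives the Cre. That no chromosome held more than 1 was set in part by the rule. It had left out 5 passing genes near G3bp1 on chromosome 11, and Retnlg and Pkp2 on chromosome 16, where Retnla lies. On GRCm38, Wdfy1 spans chr1:79702262-79776143 on the minus strand, Cdk5rap1 chr2:154335380-154373010 on the minus strand and Rab4a chr8:123805985-123835287 on the plus strand. Ccr3 spans chr9:124021971-124031689, Retnla chr16:48842552-48844461 and Vmn2r96 chr17:18581727-18598157, all on the plus strand. All 6 are annotated as protein coding, and their main transcripts have 12 exons in Wdfy1, 15 in Cdk5rap1, 8 in Rab4a, 2 in Ccr3, 4 in Retnla and 6 in Vmn2r96. Start and end in the deposited table were those of GENCODE M21 for Wdfy1, Cdk5rap1 and Rab4a and differed by 1 base for Ccr3 and Retnla. The exon numbers are those of GENCODE M21, and the exons counted were not the same for all. The gene lengths behind the FPKM were 8153 bases for Wdfy1, 4554 for Cdk5rap1 and 1989 for Rab4a. The exons of GENCODE M21 cover 6488, 3434 and 1757 bases in the same order. For Vmn2r96 the table's gene started 8576 bases later and ended 17846 bases earlier than in GENCODE M21, so the counted gene model was a shorter one.

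Other annotated genes overlapped Wdfy1 and Rab4a. Wdfy1 shared 126 bases with Mrpl44, a gene of the mitochondrial ribosome on the opposite strand. Mrpl44 had 27.6 and 22.5 CPM in WT and 26.1 and 22.4 CPM in KO, so its genotypes overlapped where those of Wdfy1 did not. Gm10555, inside Wdfy1, and Gm20388, which contains Rab4a, had 0 counts in all libraries. Whether strand was used in counting is not given in the sources used here.

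The genes next to the 6 lay on both sides of 0. A gene's start is taken here as its lower coordinate. Of 73 tested genes that started within 1 Mb of one of the 6, 36 had a log2 fold change below 0, the median was 0.00, and 2 were lower and 2 higher at an unadjusted p under 0.05 (background 1.99% and 4.64%). The lower were Retnlg and Ccr1, and the higher were Lars2 and Tubb3, a tubulin gene near Rab4a with a log2 fold change of 1.98. Retnlg, a resistin-like gene of neutrophils and a name left out by the rule, started 30.1 kb from Retnla and had 5.82 and 4.20 CPM in WT and 0.179 and 0.456 CPM in KO. Its log2 fold change was −4.05, so the only tested neighbour below −1 was a paralog of a selected gene. Near Ccr3, the chemokine receptor genes Ccr1 and Ccr2, at 59.8 and 80.0 kb, had log2 fold changes of −0.73 (SE 0.23) and −0.61 (SE 0.88). Lars2 had 1.01. Ap1s3, at 95.4 kb from Wdfy1, had 0.18, and Ccsap, at 34.8 kb from Rab4a, had 0.14. The nearest tested gene to Vmn2r96 was Fpr2, at 694 kb, with −0.61 (SE 2.22). Fpr2 had 0.235 and 23.2 CPM in WT and 0 and 16.2 CPM in KO, so its genotypes overlapped.

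**Figure D4:**
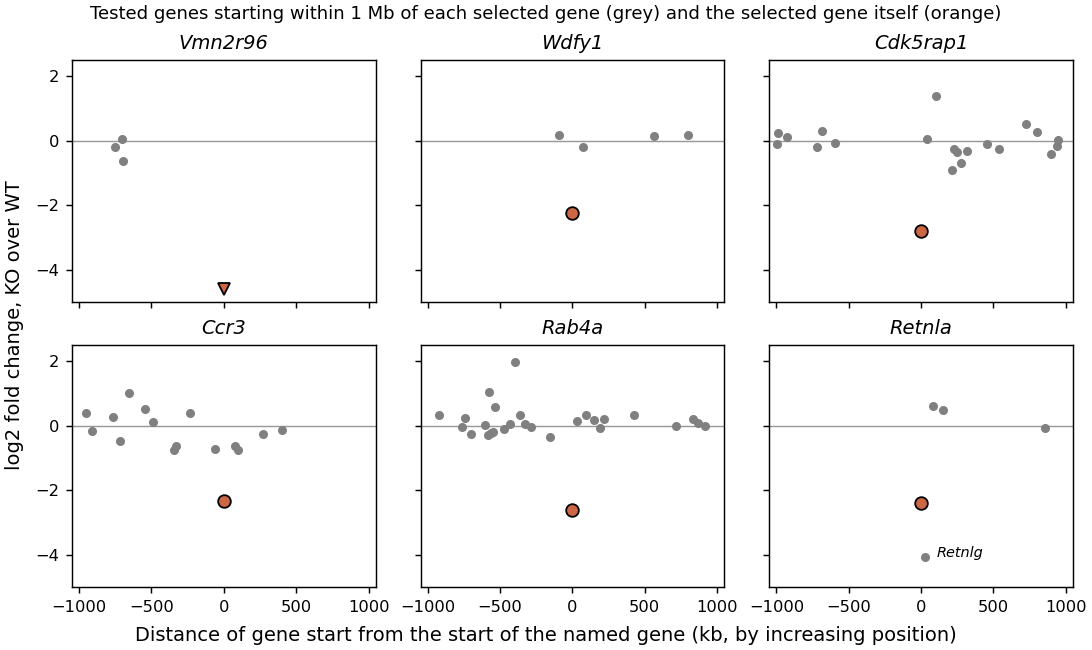
Log2 fold change of KO over WT (y axis) of tested genes against the distance of their starts from the start of each selected gene (x axis, kb). Grey points are the 73 neighbours and orange points the selected genes, with Vmn2r96 drawn as a triangle at the lower edge because its fold has only a bound. Grey points lie on both sides of 0, the lowest being Retnlg next to Retnla, at −4.05, and the highest Tubb3 near Rab4a, at 1.98.

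Apart from Retnlg, the tested relatives of the 6 genes had log2 fold changes nearer to 0. Wdfy2, Wdfy3 and Wdfy4 had log2 fold changes of −0.03 (SE 0.26), 0.14 (SE 0.30) and 0.42 (SE 0.32). Rab4b, the close paralog of Rab4a, had 9.87 and 8.83 FPKM in WT and 8.61 and 8.14 FPKM in KO, with a log2 fold change of −0.31 (SE 0.22). It was thus the higher of the RAB4 genes in every library. Cdkal1, whose product carries out the same kind of tRNA modification in the cytosol, had −0.03 (SE 0.32), and Cdk5rap2 and Cdk5rap3, which share only the name, had 0.18 and 0.07. Of 11 CC chemokine receptor genes, 6 were tested and all 6 had values below 0, Ccr3 by the rule, against 45.4% of all genes tested. Ccr1, the most abundant of them, had 149 and 174 CPM in WT and 108 and 108 CPM in KO, without overlap, with a log2 fold change of −0.73 (SE 0.23). Of 223 vomeronasal type 2 receptor genes and pseudogenes in the table, 9 had any count, and none but Vmn2r96 had more than 5 counts in a library. Retn had at most 2 counts in a library.

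Of 18 gene lists of macrophage functions and cell types, 3 held a selected gene, and Wdfy1, Cdk5rap1, Rab4a and Vmn2r96 were in none. Of the genes of alternative activation, 18 of 28 were tested, 14 had a log2 fold change below 0, the median was −0.91, and 6 were lower and 0 higher at an unadjusted p under 0.05, against 1.99% lower and 4.64% higher over all genes tested. Beside Retnla, the lower genes were Arg1, an arginase, Chil3, a chitinase-like protein, Ccl8, a chemokine, Ear2, a ribonuclease, and Folr2, a folate receptor. Arg1 had 237 and 178 CPM in WT and 90.6 and 79 CPM in KO, with a log2 fold change of −1.45 (SE 0.25). Chil3 had 137 and 126 CPM in WT and 59.4 and 61.9 CPM in KO, with a log2 fold change of −1.27 (SE 0.23). Its genotypes did not overlap, and its difference was smaller than that of Retnla. Mrc1, the mannose receptor, and Il4ra, the receptor chain through which IL-4 and IL-13 act, had log2 fold changes of 0.09 (SE 0.26) and 0.23 (SE 0.45). Both KO libraries were below both WT libraries in 8 genes of this list, Retnla among them by the rule, against 1166 of all 12418 tested genes, or 9.39%, on CPM of library totals.

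Ccr3 was on the list of eosinophil genes, of which 3 of 9 were tested. Siglecf, a surface lectin of eosinophils and some macrophages, had 11.1 and 9.45 CPM in WT and 9.21 and 8.15 CPM in KO, and Alox15, a lipoxygenase, had 1.41 and 1.24 CPM against 0.658 and 0.506 CPM. The granule protein genes Prg2, Prg3, Epx, Ear1 and Ear6 had 0 counts in all 4 libraries. Il5ra, the interleukin-5 receptor chain, had 0.294 and 0.473 CPM in WT and 0.658 and 0.355 CPM in KO, with overlap. The summed level of the list was 13.2 to 14.5 CPM in WT and 9.47 to 10.9 CPM in KO. This sum includes Ccr3, which the rule chose for its lower KO level, and most of it came from Siglecf. In the list of mast cell and basophil genes, 12 of 21 were tested and 11 had values below 0, with a median log2 fold change of −0.99. Their summed level was 85.3 to 87.0 CPM in WT and 45.2 to 49.9 CPM in KO, Mcpt8, Mcpt2, Il4 and Il13 were at 0, and Tpsb2, a mast cell tryptase, had 39.2 and 33.1 CPM against 14.8 and 17.2 CPM. The part of these cells in the level of Ccr3 was not tested, and in bulk RNA fewer cells of a type and less RNA per cell cannot be told apart. Among the chemoattractant and cytokine receptors, where Ccr3 also belongs, 33 of 35 genes were tested, 21 had values below 0 and the median was −0.11, with 2 genes lower, Ccr3 by the rule and Ccr1, and 2 higher at an unadjusted p under 0.05 (1.99% and 4.64% over all genes).

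The 15 lists without a selected gene had medians from −0.99 to 1.81. Values were mostly below 0 in the lists of interferon-stimulated genes (64 of 67 tested, 14 lower at an unadjusted p under 0.05), MHC class II genes (11 of 11, 5 lower) and B cell genes (11 of 12, 6 lower), none of which held a gene higher at that p. Over all genes tested, 45.4% had values below 0 and 1.99% were lower at that p. The highest median was that of the stromal list, of which 18 of 19 tested genes had values above 0. Its summed level was 212 to 257 CPM in WT and 750 to 913 CPM in KO, and the part of stromal RNA in the levels of the 6 genes was not tested.

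**Figure D5:**
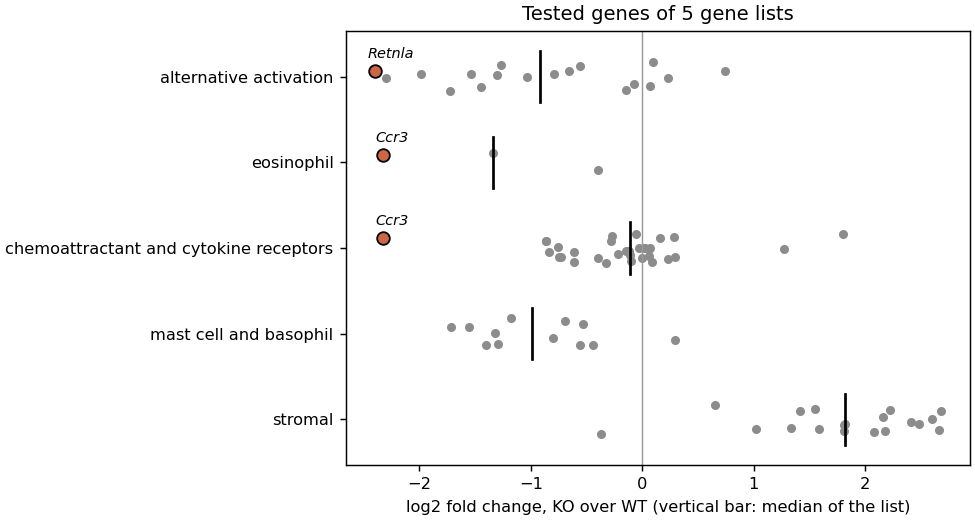
Log2 fold change of KO over WT (x axis) of the tested genes of 5 gene lists (y axis), with a vertical bar at each list's median and random vertical scatter within a list. Orange points are the selected genes Retnla and Ccr3, which have the lowest value of each list they belong to, and the stromal genes lie on the other side of 0, with a median of 1.81.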

How the data were processed

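The authors filtered reads with Seqtk, aligned them with Hisat2 2.0.4 and counted fragments per gene with StringTie 1.3.3b. The deposited table gave whole-number counts, not normalised, and beside them FPKM values computed by the authors. Dividing each count by its FPKM and by the library total gave gene lengths that varied by no more than 0.00398% over the libraries (10564 genes above 20 counts), which shows scaling by library total without TMM. The submitters' processing notes named mm39, but 27776 of 34344 gene identifiers shared with GENCODE M21 matched it in start and end on GRCm38, and GRCm38 positions are therefore printed.

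CPM were computed on library totals. Log2 fold changes came from edgeR 4.0.16 in R 4.3.3, which tested 12418 genes. The settings were filterByExpr, TMM factors of 0.955, 0.942, 1.11 and 0.997, glmQLFit and glmQLFTest with genotype as the only term, and Benjamini-Hochberg adjustment. The fit was also run on simulated counts. These held no effect of replicate number, so they do not show how many changed genes it would call in the real libraries. DESeq2 1.42.0 and limma 3.58.1 were alternatives. Selected genes and gene lists were chosen with earlier results of these data known. Named were G3bp1, Lyz2, all 6 selected genes and the 3 just outside the limit. Neighbours, paralogs and genes of lists were picked once values were known.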

Additional observations from a re-analysis of the deposited data

How the results depend on the processing

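Beside the 6 genes selected, 16 passed with TMM-scaled totals and 16 with DESeq2 size factors, 31 at a ratio of 2, 2 at a ratio of 4 (Vmn2r96 and Wdfy1), 10 at 0.5 CPM and 15 with no exclusions. Leaving out 1 library gave 22 to 43, the most without WT replicate 1. Vmn2r96 and Ccr3 were lost at 2 CPM and with a limit of 1 FPKM, and Wdfy1 passed in 12 of 12 settings. Many of these settings only loosen the rule, so all 6 genes had to pass them. These are the lower ratio, the lower floor, no exclusions and a library left out. The genes called lower, 0 with edgeR's quasi-likelihood test, were 45 with DESeq2's Wald test, 30 with the exact test, 2 with limma on log2(FPKM + 0.1), and 0 to 1 with a library left out.

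With the replicate number as a term (replicate block), 170 genes were called lower, the 6 among them, and the median log2 fold change of the 6 was −2.45. The labels give no pairing beyond the number. WT and KO libraries of 1 number deviated together (correlation 0.71, the same for both numbers by construction), a hint from the data and not from the design. The median of the 6 was −1.44 with log2(FPKM + 1), whose pseudocount compresses low genes, and −2.94 to −2.20 with a library left out. At this depth, Ccr3, Rab4a and Vmn2r96 rest on at most 17 counts in a KO library.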

Other observations

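Between ratios of 2 and 3 lay 25 further genes, 4 of them immunoglobulin segments, and the following were chosen after their values were seen. Nmnat1, an enzyme of NAD synthesis in the nucleus, had 19.9 and 19.7 CPM in WT and 6.16 and 7.60 CPM in KO, a ratio of 2.59, with WT libraries as close together as those of Wdfy1. Usp18, which removes the ubiquitin-like modifier ISG15, had 9.76 and 10.3 CPM in WT and 3.65 and 2.33 CPM in KO, and Irf4, a transcription factor of alternative activation, had 10.5 and 10.8 CPM against 4.78 and 2.73 CPM. Dynlt1b, a dynein light chain, had 33.9 and 17.1 CPM in WT and 8.37 and 7.60 CPM in KO, so that WT replicate 1 stood above WT replicate 2 as in Cdk5rap1, Rab4a and Retnla. The mast cell genes Mcpt4 and Fcer1a were also in this range, at ratios of 2.40 and 2.05.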
